A study of Mus musculus with 12 samples.

Results

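The genes described here are those of the cell cycle and of DNA replication, which were taken from the count table by gene symbol. All 48 symbols were found among its 12960 genes, and 47 of them were among the 10822 genes with enough counts to be tested. Ccne2, which encodes cyclin E2, was the member left out. By role, 11 members act in S phase (the Mcm2 to Mcm7 helicase subunits, Gins1, Gins2, Pcna, Rrm1 and Rrm2), 8 belong to the G1/S transition or to replication control, 20 act in mitosis or mark dividing cells, 6 are D-type cyclins or their partner kinases and Cdk2, and 3 are inhibitors of cyclin-dependent kinases (CDK).

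RNA sequencing was done on bone marrow-derived macrophages (BMDMs) of wild-type (WT) mice and of mice without AMPKβ1 (AMPKβ1-/-), the regulatory subunit of AMP-activated protein kinase to which PF-06409577 binds. BMDMs, grown from marrow with L929 cell medium as a source of M-CSF, received DMSO vehicle or 10 µM PF-06409577 for 6 h. Each of the 4 groups (WT vehicle, WT PF-06409577, AMPKβ1-/- vehicle and AMPKβ1-/- PF-06409577) had 3 libraries, which are numbered here as the columns of the count table are. The labels do not say whether the libraries of a group came from separate mice or cultures, so the p-values measure the spread between these libraries, which may be technical. Sex, age and background of the mice that gave these BMDMs were not given in the sources used here.

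A cell that commits to division first makes D-type cyclins, which with CDK4 and CDK6 phosphorylate the retinoblastoma protein and release E2F transcription factors. E2F factors turn on genes of DNA replication, while genes of mitosis follow later under the MYB-MuvB and FOXM1 complexes, which act through the cell cycle homology region (CHR) of promoters. M-CSF drives BMDMs to divide, and the CDK inhibitors p21 (Cdkn1a) and p27 (Cdkn1b) oppose division as macrophages mature.

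Promoters of 38 of the 48 members were found in a RefSeq-derived table of windows from 250 bases before to 50 bases after the start of transcription. To show how the S-phase and mitotic genes differ in sequence, the 200 bases before the start of 4 members are given 5′ to 3′ on the strand of the gene. Capitals mark E2F letters (TTTCCCGC, TTTCGCGC, TTTGCCGC or TTTGGCGC), CHR letters (TTTGAA) and CCAAT letters, each on either strand.
Mcm6 (GRCm38.p6, chr1:128359706-128359905, minus strand): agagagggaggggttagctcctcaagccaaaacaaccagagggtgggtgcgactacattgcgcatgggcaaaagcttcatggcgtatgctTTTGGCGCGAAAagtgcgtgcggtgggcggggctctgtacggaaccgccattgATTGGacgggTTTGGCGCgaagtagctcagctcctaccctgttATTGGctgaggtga
Mcm7 (GRCm38.p6, chr5:138171267-138171466, minus strand): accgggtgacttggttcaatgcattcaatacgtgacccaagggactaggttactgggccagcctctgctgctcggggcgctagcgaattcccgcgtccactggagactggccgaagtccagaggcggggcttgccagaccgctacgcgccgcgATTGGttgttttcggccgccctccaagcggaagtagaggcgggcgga
Cdk1 (GRCm38.p6, chr10:69352913-69353112, minus strand): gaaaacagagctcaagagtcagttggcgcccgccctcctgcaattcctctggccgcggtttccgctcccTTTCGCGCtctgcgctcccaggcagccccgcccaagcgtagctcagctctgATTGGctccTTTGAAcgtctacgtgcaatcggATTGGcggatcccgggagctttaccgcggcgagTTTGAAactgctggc
Top2a (GRCm38.p6, chr11:99024190-99024389, minus strand): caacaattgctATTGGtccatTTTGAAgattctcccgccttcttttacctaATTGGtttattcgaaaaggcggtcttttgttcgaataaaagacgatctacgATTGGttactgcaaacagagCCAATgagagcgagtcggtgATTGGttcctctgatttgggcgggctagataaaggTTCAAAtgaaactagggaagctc

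The Mcm6 stretch held E2F letters at −110, −106 and −47 from the start, of which the first pair overlapped on opposite strands, and no CHR letters. The Mcm7 stretch held CCAAT letters alone, at −47, while a second window of Mcm7 in the table, from another start, held E2F letters at −165 and 16. Cdk1 had E2F letters at −131 and CHR letters at −71 and −15, while Top2a had CHR letters at −179 and −23 among CCAAT letters at −189, −149, −98, −78 and −58. Over the whole windows, with a gene of several windows counted if any held the letters, E2F letters occurred in 4 of 8 S-phase promoters, in 1 of 16 mitotic promoters and in 4.99% of the promoters of 8784 tested genes. CHR letters occurred in 1 of 8 S-phase promoters, in 11 of 16 mitotic promoters and in 14.3% of those of the tested genes. CCAAT letters were in 8 of 8 S-phase and 14 of 16 mitotic promoters, against 43.3% of the tested genes. Such matches describe letters and not bound sites.

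Libraries held between 8935609 and 14358180 counts. Prkab1, the gene of AMPKβ1, was at 37.3 CPM (read counts scaled to library size by TMM) or more in the WT libraries and at 9.42 CPM or less in the AMPKβ1-/- libraries, so each library matched its genotype. Of the lists of cell type markers, all 8 macrophage markers were present, with a summed level of 25191 to 29681 CPM in the WT and AMPKβ1-/- groups. Markers of other cells were low. Granulocyte and precursor markers (8 of 11 in the table) summed to 2.09 to 5.66 CPM, stem and progenitor markers (5 of 7) to 4.70 to 10.2 CPM, and fibroblast markers (6 of 7) to 1.31 to 3.61 CPM in 11 libraries and 10.4 CPM in AMPKβ1-/- vehicle library 1. That library also stood apart in the mitotic genes, and the values that rest on it are given with and without it. Only Cd79b of 9 lymphoid markers and Hba-a1 and Klf1 of 7 erythroid markers were in the table, with Hba-a1 and Klf1 at 0 in some libraries, and the part of these cells in the results below was not tested.

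**Figure D1:**
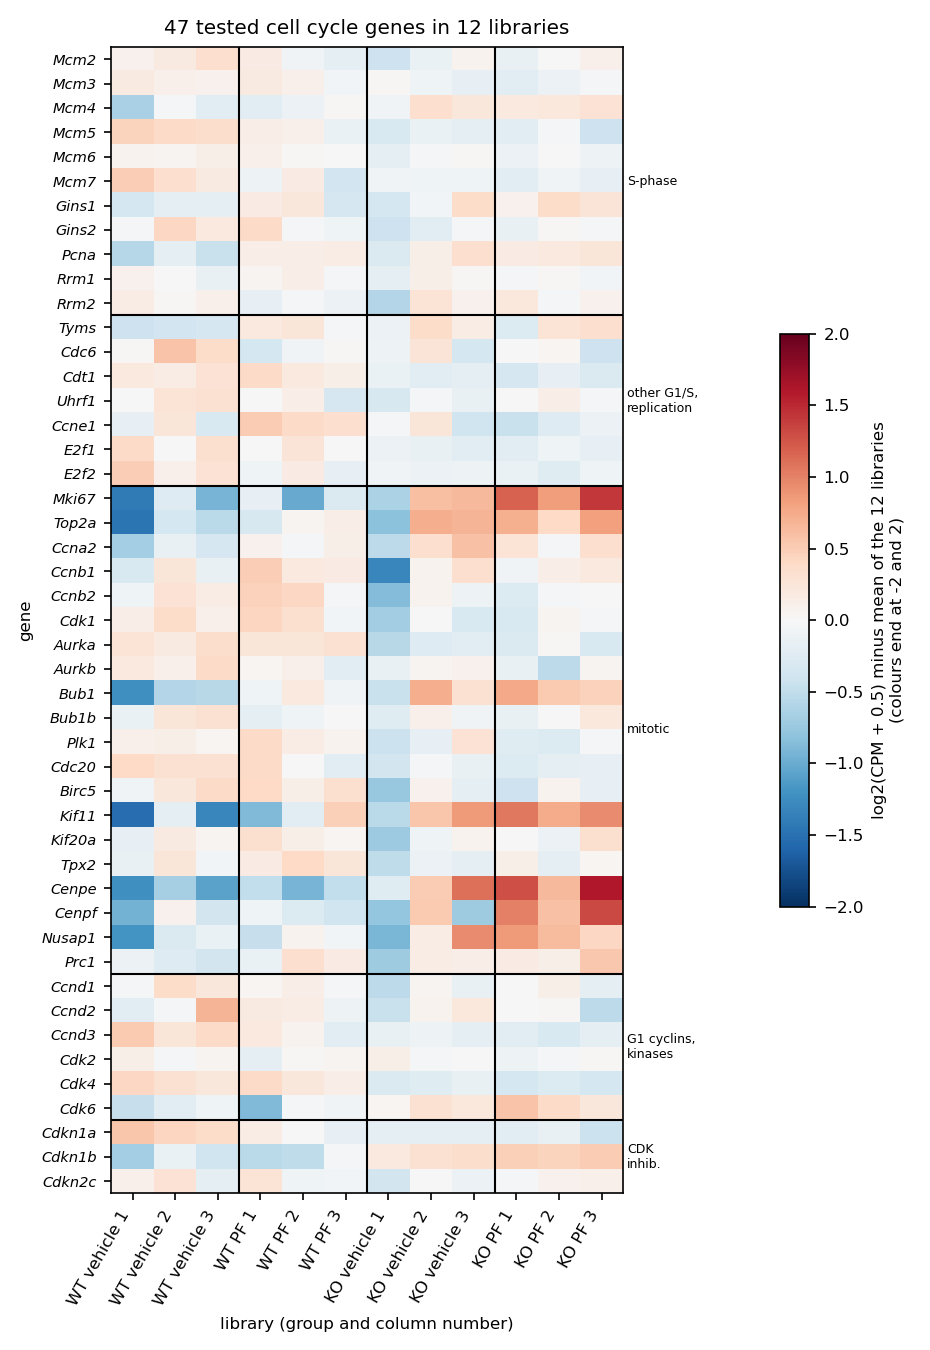
Level of each of the 47 tested members (rows, by role) in each of the 12 libraries (columns), as the log2 difference from the member's mean over the libraries, from blue (lower) to red (higher). The mitotic block is blue in AMPKβ1-/- vehicle library 1, and Mki67, Top2a, Bub1, Kif11 and Cenpe are blue in WT vehicle library 1 and red in the 3 AMPKβ1-/- PF-06409577 libraries.

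By median level the S-phase machinery was expressed above the mitotic genes, but the lists overlapped. Per kilobase of transcript, the median level of the 11 S-phase members in WT vehicle BMDMs was 9.76 CPM, against 1.75 CPM for the 20 mitotic members, 17.4 CPM for the 6 G1 cyclins and kinases and 6.27 CPM for the 3 CDK inhibitors. On this scale the S-phase members started at 1.30 CPM per kilobase (Gins1), and the mitotic members reached 5.47 (Cdc20). The highest members were Cdkn1a at 121 CPM per kilobase, Cdk4 at 66.3 and Pcna at 64.2. Ccne2 was the lowest, with no count in the WT vehicle libraries and 0.393 to 0.610 CPM in the AMPKβ1-/- PF-06409577 libraries, where a count of 0 allows a level of up to 0.196 to 0.321 CPM, depending on the library.

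The first comparison asked whether PF-06409577 changed these genes in WT BMDMs. Of the 47 members, 1 rose and 4 fell (edgeR's quasi-likelihood test, Benjamini-Hochberg adjusted p below 0.05), and none moved by more than 0.8 on the log2 scale, the fold threshold of the study. Over all 10822 genes tested, 6.99% rose and 8.95% fell, and 1.16% and 0.37% did so past that threshold, so the members' share of calls was not above that of all genes. Pcna, the sliding clamp of DNA polymerases, was the member that rose. Cdkn1a, the helicase subunits Mcm5 and Mcm7 and the D-type cyclin Ccnd3 were those that fell.

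Cdkn1a (ENSMUSG00000023067, chr17:29090976-29100727, GRCm38, plus strand) encodes p21, which binds and inhibits cyclin-CDK complexes and is a target of p53. Its level was 270.5, 248.4 and 238.2 CPM in the WT vehicle libraries and 203.5, 184.7 and 164.7 CPM in the WT PF-06409577 libraries. In AMPKβ1-/- BMDMs it was 162, 161 and 163 CPM with vehicle and 159, 166 and 136 CPM with PF-06409577. The WT vehicle libraries thus lay above all 9 others. Cdkn1a fell by 0.45 on the log2 scale in WT BMDMs (SE 0.091, n = 3 and 3, edgeR adjusted p = 0.00696), and this call held under all 21 alternative settings, with edgeR or DESeq2 adjusted p from 0.000498 to 0.0437. The change in AMPKβ1-/- BMDMs was −0.08 (SE 0.092, edgeR adjusted p = 0.982). The difference between the genotypes, −0.38 (SE 0.13), had the lowest p of all members, yet it did not pass the edgeR test (adjusted p = 0.209).

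Pcna (ENSMUSG00000027342, chr2:132249162-132253314, minus strand) was at 85.5, 113 and 93.7 CPM with vehicle and 140, 139 and 142 CPM with PF-06409577 in WT BMDMs, and the groups did not overlap. The rise was 0.53 (log2, SE 0.13, edgeR adjusted p = 0.0195). In AMPKβ1-/- BMDMs Pcna was at 104, 138 and 162 CPM with vehicle and 143, 146 and 151 CPM with PF-06409577, which overlapped. Pcna was called in 15 of its 21 alternative settings, the highest edgeR adjusted p being 0.135 with the trend of the median transcript (below) removed.

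Mcm7 went from 37.0, 33.0 and 29.6 CPM to 24.4, 29.3 and 19.8 CPM with PF-06409577 in WT BMDMs (log2 change −0.44, SE 0.13, edgeR adjusted p = 0.0328). Mcm5 went from 47.5, 45.2 and 44.3 CPM to 37.9, 37.2 and 31.5 CPM (−0.36, SE 0.11, edgeR adjusted p = 0.0352). Both belong to the hexameric helicase that unwinds DNA at origins. The other subunits gave no call, among them Mcm2 (21.9, 23.4 and 26.3 CPM with vehicle against 23.1, 19.7 and 18.2 CPM) and Mcm6 (107, 106 and 111 CPM against 110, 104 and 102 CPM), whose libraries overlapped between the groups. Ccnd3 went from 54.7, 44.6 and 49.4 CPM to 43.1, 39.5 and 32.3 CPM (−0.37, SE 0.11, edgeR adjusted p = 0.0327). Without WT vehicle library 1 or WT PF-06409577 library 3, 0 members rose and 1 fell. Of all genes, 1.7% rose and 3.23% fell without the former, and 1.18% and 1.99% without the latter. Without WT vehicle library 3 or WT PF-06409577 library 2, 0 members rose and 2 fell. The shares of all genes were then 2.38% and 4.02%, and 1.7% and 2.46%, in that order.

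**Figure D2:**
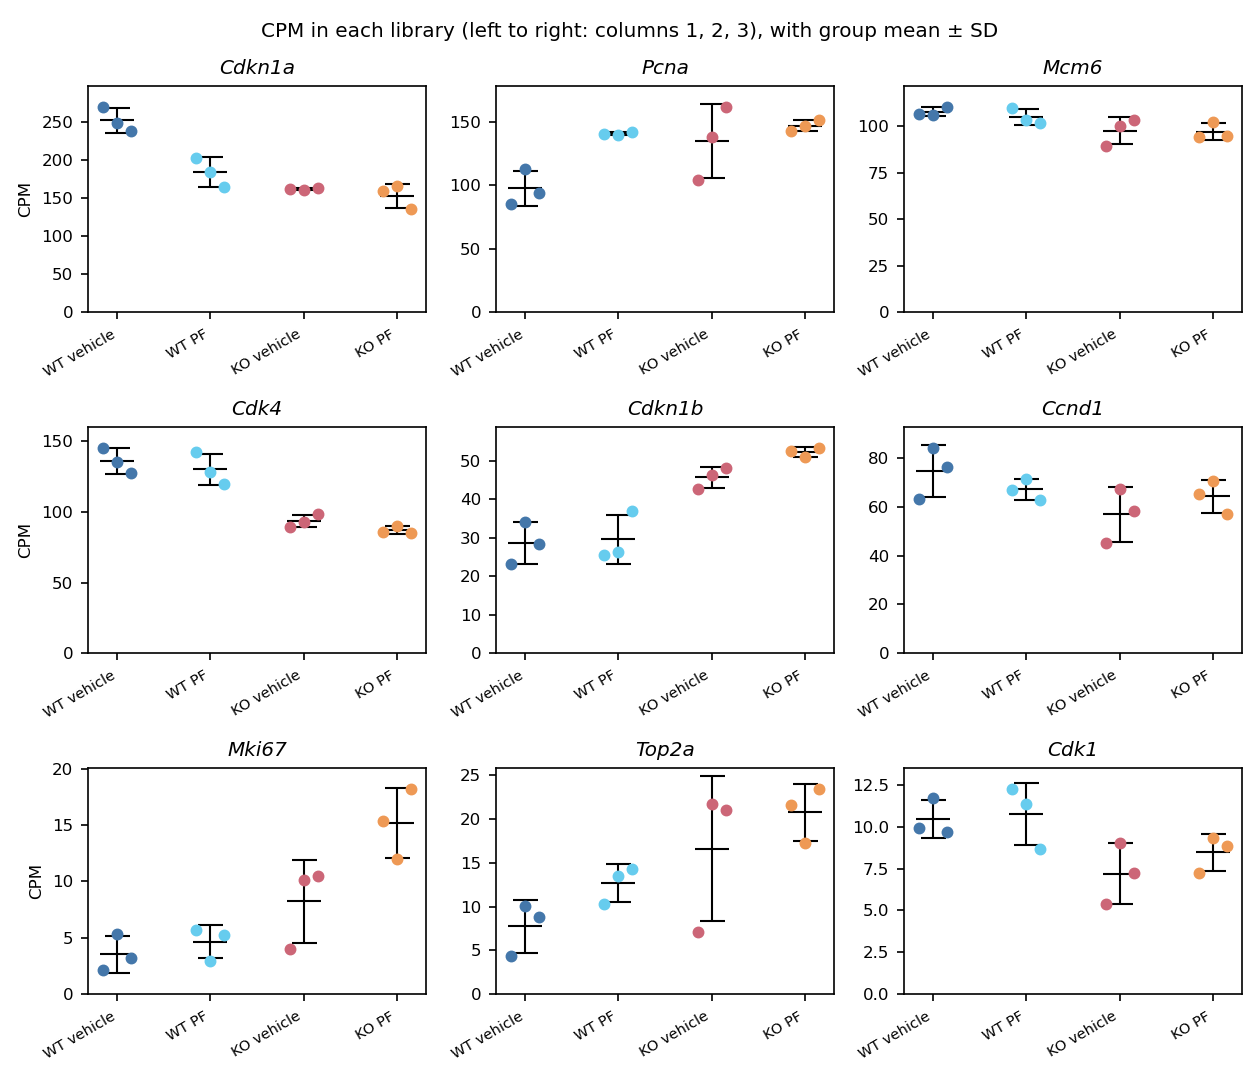
CPM of 9 members in each library, with the group mean (bar) and SD (n = 3), on linear axes that start at 0. The 3 WT vehicle libraries of Cdkn1a lie above the other 9, Pcna rises with PF-06409577 in WT BMDMs without overlap, Cdk4 is lower and Cdkn1b higher in AMPKβ1-/- BMDMs, and AMPKβ1-/- vehicle library 1 is the lowest of its group for Mki67, Top2a and Cdk1.

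None of the 20 mitotic genes was called with PF-06409577 in WT BMDMs, although 16 of them had a positive log2 fold change. At an unadjusted edgeR p below 0.05, 1 of the 20 was higher, against 1860 of all 10822 genes tested. DESeq2 gave an adjusted p to 16 of the 20 and called 0. The median change of the mitotic genes was 0.21, against −0.045 for the 11 S-phase genes, 0.028 for all members and 0.0048 for all genes tested. It was 0.12 without WT vehicle library 1, 0.40 without WT vehicle library 2, 0.14 without WT PF-06409577 library 1 and 0.13 once each library's trend with GC content (below) was taken out. Stem and progenitor markers summed to 4.70 to 7.76 CPM with vehicle and 7.03 to 10.2 CPM with PF-06409577. Of them only Kit was higher without overlap (1.11 to 1.59 against 2.49 to 4.02 CPM). Cd34, Flt3 and Meis1 overlapped, and Gata2 was lower (0.0923 to 0.299 against 0 to 0.0769 CPM). The part of such cells in the mitotic values was not tested. Mki67, the proliferation antigen Ki-67, was at 2.14, 5.35 and 3.18 CPM with vehicle and 5.75, 2.99 and 5.23 CPM with PF-06409577. Top2a, the topoisomerase that untangles sister chromatids, was at 4.38, 10.1 and 8.76 CPM and at 10.3, 13.5 and 14.3 CPM (log2 change 0.70, SE 0.38, edgeR adjusted p = 0.20). Cdk1, the kinase that starts mitosis, was at 9.94, 11.7 and 9.65 CPM and at 12.3, 11.3 and 8.69 CPM, and its partner Ccnb1 at 4.17, 6.28 and 4.68 CPM and at 7.55, 6.08 and 5.92 CPM. Rrm2, the ribonucleotide reductase subunit made in S phase, was at 5.77, 5.26 and 5.57 CPM and at 4.55, 5.05 and 4.69 CPM, which did not overlap but gave an edgeR adjusted p of 0.465 (log2 change −0.22, SE 0.21). For Ccnd1, the D-type cyclin that M-CSF induces, the values of 63.3, 84.2 and 76.4 CPM and of 67.0, 71.4 and 62.9 CPM overlapped.

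In AMPKβ1-/- BMDMs no member passed the edgeR test with PF-06409577, where 0.0554% of all genes rose and 0% fell. DESeq2 called 0 members. At an unadjusted edgeR p below 0.05, 3 members were higher and 0 lower, against 464 and 75 of all 10822 genes tested. The 3 were Cenpf, Mki67 and Cenpe, which encode a centromere protein, Ki-67 and a kinetochore motor. Cenpf was at 0.182, 1.17 and 0.212 CPM with vehicle and at 1.83, 1.26 and 2.42 CPM with PF-06409577 (log2 change 1.59, SE 0.52, edgeR adjusted p = 0.557). Mki67 was at 4.01, 10.2 and 10.5 CPM and at 15.3, 12 and 18.2 CPM (0.87, SE 0.33, edgeR adjusted p = 0.773). Cenpe was at 0.912, 1.89 and 3.08 CPM and at 3.57, 2.12 and 4.56 CPM, with overlap (0.81, SE 0.36, edgeR adjusted p = 0.964). Leaving out vehicle library 1 gave 1.2 for Cenpf, 0.55 for Mki67 and 0.49 for Cenpe. Cenpf was at 3.14 without vehicle library 2, and Cenpe at 1.22 without vehicle library 3.

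The median change of the mitotic genes in AMPKβ1-/- BMDMs was 0.26, with 16 of 20 positive, and that of the S-phase genes was 0.062. These values rested on AMPKβ1-/- vehicle library 1. In it the 20 mitotic genes summed to 74.4 CPM, against 132 and 134 CPM in libraries 2 and 3 of that group, and every mitotic member was lower in it than in those 2 libraries. The S-phase genes summed to 370 CPM in library 1 and to 437 and 461 CPM in libraries 2 and 3, and 9 of 11 were lowest in library 1. Fibroblast markers summed to 10.4 CPM in library 1 and to 2.87 and 3.61 CPM in libraries 2 and 3, and their part in the low mitotic level was not tested. Without library 1 the median change with PF-06409577 was 0.039 for the mitotic and −0.046 for the S-phase genes. In bulk RNA, fewer dividing cells in a library and less mitotic RNA per dividing cell cannot be told apart.

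This library also set how well the mitotic genes were measured. The median SD between AMPKβ1-/- vehicle libraries was 0.53 on the log2 scale for the mitotic genes, 0.19 for the S-phase genes and 0.13 for all genes tested. In the other groups it was 0.20 to 0.25 for the mitotic genes and 0.090 to 0.12 for the S-phase genes. WT vehicle library 1 was the next lowest in mitotic RNA, at 97.0 CPM against 124 and 113 CPM in WT vehicle libraries 2 and 3, and it was the lowest of the 12 libraries for 8 mitotic genes, while AMPKβ1-/- vehicle library 1 was so for 11. The summed mitotic level was 111 ± 13.5 CPM in WT vehicle, 123 ± 3.26 CPM in WT PF-06409577, 114 ± 34.1 CPM in AMPKβ1-/- vehicle and 138 ± 14.2 CPM in AMPKβ1-/- PF-06409577 libraries (SD, n = 3). The summed S-phase level was 429 ± 15.2, 448 ± 17.5, 422 ± 47.1 and 436 ± 12.8 CPM in the same order.

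**Figure D3:**
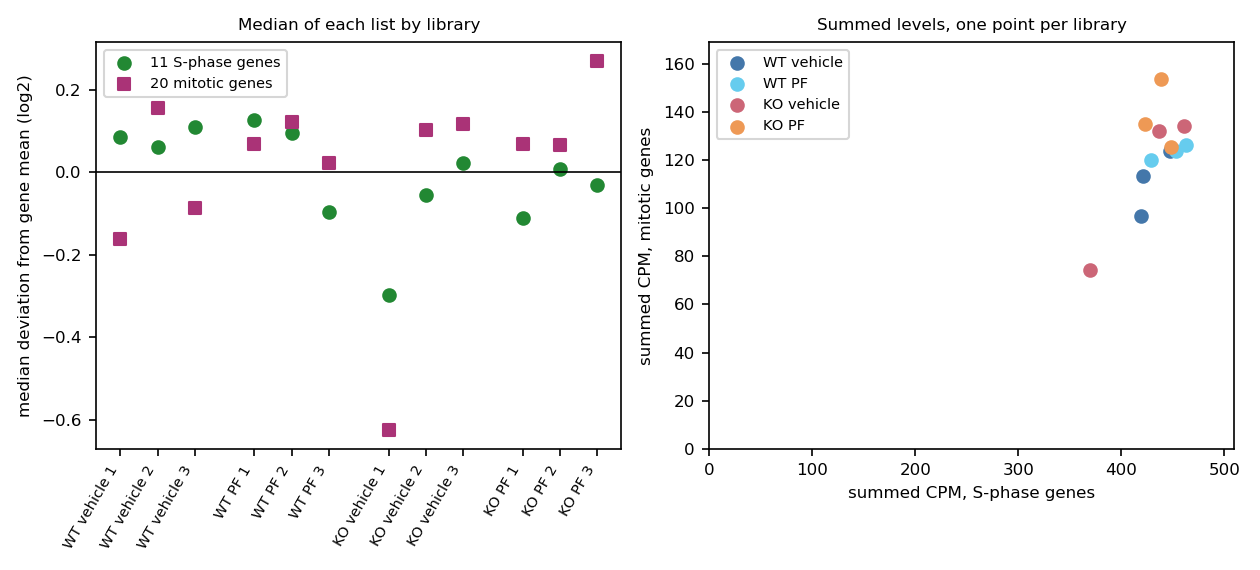
Left, median log2 deviation of the 11 S-phase (circles) and 20 mitotic members (squares) from their means over the 12 libraries; right, summed CPM of the S-phase against the mitotic members, a point per library, with both axes from 0. AMPKβ1-/- vehicle library 1 stands apart at −0.63 for the mitotic and −0.30 for the S-phase genes, and at 74.4 CPM on the right.

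The responses of the genotypes to PF-06409577 were then set against each other in a single interaction test. No member passed in either direction (background 0.176% higher and 0.24% lower). DESeq2 called 0, but it gave an adjusted p to only 22 of the 48 members, among them 2 of the 20 mitotic genes. At an unadjusted edgeR p below 0.05, 2 members were higher and 3 lower in WT than in AMPKβ1-/- BMDMs. Of all 10822 genes tested, 687 were higher and 863 lower at that threshold. After Cdkn1a, the lowest p were those of Ccne1 and Mcm5. Ccne1, which encodes cyclin E1, the partner of CDK2 at the start of S phase, was at 1.71, 2.40 and 1.49 CPM and at 3.0, 2.71 and 2.62 CPM in WT BMDMs, and at 1.91, 2.41 and 1.38 CPM and 1.31, 1.57 and 1.77 CPM in AMPKβ1-/- BMDMs (difference 0.89, SE 0.38, edgeR adjusted p = 0.308). The difference was −0.36 for Mcm5 (SE 0.15, edgeR adjusted p = 0.312). The median difference was −0.029 for the S-phase and −0.028 for the mitotic genes, against −0.0023 for all genes.

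Loss of AMPKβ1 in vehicle-treated BMDMs went with calls in more of the members than PF-06409577 did in either genotype. Of the 47 tested, 10 were higher and 15 lower in AMPKβ1-/- than in WT BMDMs (edgeR adjusted p below 0.05), where 29.7% of all genes were higher and 30% lower. Past 0.8 on the log2 scale 5 were higher and 0 lower, against 16.1% and 1.76% of all genes. The 5 were Cenpe, Bub1, Kif11, Mki67 and Top2a, all of them mitotic. This comparison and that of PF-06409577 with vehicle in WT BMDMs share the WT vehicle libraries.

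Of the 20 mitotic genes, 6 were higher and 3 lower, where 29.7% of all genes were higher and 30% lower. The higher ones were thus near the share of all genes, and the lower ones below it. Cenpe (ENSMUSG00000045328, chr3:135212537-135273611, plus strand) was at 0.214, 0.554 and 0.299 CPM in WT and at 0.912, 1.89 and 3.08 CPM in AMPKβ1-/- vehicle libraries (log2 difference 2.37, SE 0.55, edgeR adjusted p = 0.00177). Bub1, a checkpoint kinase of the spindle, was at 0, 0.277 and 0.299 CPM and at 0.365, 1.43 and 0.954 CPM (2.22, SE 0.63, edgeR adjusted p = 0.00734). Both rested on few counts. Cenpe had 11 counts in the WT and 68 in the AMPKβ1-/- vehicle libraries, a ratio of 5.23 (exact 95% counting interval 2.75 to 11), and Bub1 had 6 and 35, a ratio of 4.94 (2.05 to 14.4), intervals that cover counting error only. Kif11, the motor that separates the spindle poles, was at 0.535, 2.12 and 0.697 CPM and at 1.55, 3.85 and 4.88 CPM (1.56, SE 0.53, edgeR adjusted p = 0.0221).

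Mki67 (ENSMUSG00000031004, chr7:135689784-135716361, minus strand) was at 2.14, 5.35 and 3.18 CPM in WT and at 4.01, 10.2 and 10.5 CPM in AMPKβ1-/- vehicle libraries (1.19, SE 0.39, edgeR adjusted p = 0.0168). Top2a (ENSMUSG00000020914, chr11:98992943-99024189, minus strand) was at 4.38, 10.1 and 8.76 CPM and at 7.11, 21.7 and 21 CPM (1.1, SE 0.37, edgeR adjusted p = 0.0222). For both genes AMPKβ1-/- vehicle library 1 lay within the WT range and the other libraries 2 and 3 above it. Ccna2, cyclin A2, just passed (0.65, SE 0.27, edgeR adjusted p = 0.0498) and was called in 6 of 21 alternative settings. Aurka, an Aurora kinase of the spindle poles, went the other way, at 7.16, 6.74 and 7.66 CPM in WT and 3.83, 4.83 and 4.98 CPM in AMPKβ1-/- libraries (−0.66, SE 0.17, edgeR adjusted p = 0.00330). Cdk1 (5.38, 9.0 and 7.21 CPM in AMPKβ1-/- vehicle libraries, −0.52, SE 0.19) and Cdc20, an activator of the anaphase-promoting complex (−0.53, SE 0.17), were lower as well, while Ccnb1 was at 1.82, 5.54 and 6.79 CPM and gave no call.

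Without AMPKβ1-/- vehicle library 1, 7 mitotic genes were higher and 1 lower, and their median difference went from −0.15 to 0.12. Over all members, 11 were then higher and 10 lower, against 29% and 29.9% of all genes. The number of members that were higher was 4 without WT vehicle library 1 (24.3% of all genes) and 6 without WT vehicle library 3 (28.7%). It was 3 without AMPKβ1-/- vehicle library 2 (24.6%) and 5 without AMPKβ1-/- vehicle library 3 (26.3%). Lower members numbered 10 without WT vehicle library 2, where 28.9% of all genes were lower.

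Among the 11 S-phase genes 2 were higher and 4 lower with the loss of AMPKβ1, where 29.7% of all genes were higher and 30% lower. Mcm4 (0.46, SE 0.15) and Pcna (0.46, SE 0.13) were higher, and Mcm2 (−0.36, SE 0.14), Mcm5 (−0.60, SE 0.11), Mcm7 (−0.42, SE 0.13) and Gins2 (−0.44, SE 0.16) were lower. Mcm2 was at 15.4, 18.8 and 21.6 CPM and Mcm6 at 89.6, 100 and 103 CPM in AMPKβ1-/- vehicle libraries, and Mcm6 gave no call (−0.14, SE 0.077). Rrm2 was at 3.28, 6.33 and 5.51 CPM, which overlapped with WT. Subunits of the same helicase thus differed in sign as fitted, though the libraries of Mcm4 overlapped between the genotypes. With the trend in GC content and length (below) removed, Mcm4 was at 0.17, Mcm7 at −0.01 and Mcm2 at 0.10. None of these was called then (edgeR adjusted p = 0.272, 0.939 and 0.580), while Mcm5 stayed lower (−0.28, edgeR adjusted p = 0.0283). Of the other G1/S genes, Tyms, the enzyme that makes thymidylate, was higher (0.61, SE 0.23), and Cdt1, which loads the helicase, Uhrf1, E2f1 and E2f2 were lower (−0.37 to −0.41), of which Cdt1, Uhrf1 and E2f1 had a positive difference with the trend in GC content and length (below) removed. The median difference was −0.14 for the S-phase and −0.15 for the mitotic genes, and −0.026 for all genes, so the lists stood within 0.0042 of each other. Without AMPKβ1-/- vehicle library 1 the S-phase minus mitotic median was −0.20. Its SD between libraries of a group was 0.18, so the small gap does not show that the lists moved together.

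The G1 regulators included the lowest p-values of the module. Cdkn1a was lower in AMPKβ1-/- BMDMs by the values given above (−0.64, SE 0.092, edgeR adjusted p = 8.81e-05). Cdk4 (ENSMUSG00000006728, chr10:127063534-127067920, plus strand), the kinase partner of D-type cyclins, was at 146, 135 and 128 CPM in WT and at 89.4, 93.0 and 98.3 CPM in AMPKβ1-/- vehicle libraries (−0.54, SE 0.082, edgeR adjusted p = 0.000118). Cdkn1b (ENSMUSG00000003031, chr6:134920401-134925513, plus strand), which encodes p27, was higher, at 23.2, 34.2 and 28.3 CPM against 42.8, 46.4 and 48 CPM (0.68, SE 0.14, edgeR adjusted p = 0.00108). Ccnd3 (−0.54, SE 0.11) and Ccnd1 (−0.39, SE 0.14), at 45, 67.4 and 58.4 CPM in AMPKβ1-/- libraries, were lower. The libraries of Cdk4, Cdkn1b and Ccnd3 did not overlap between the genotypes, and those of Ccnd1 did.

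**Figure D4:**
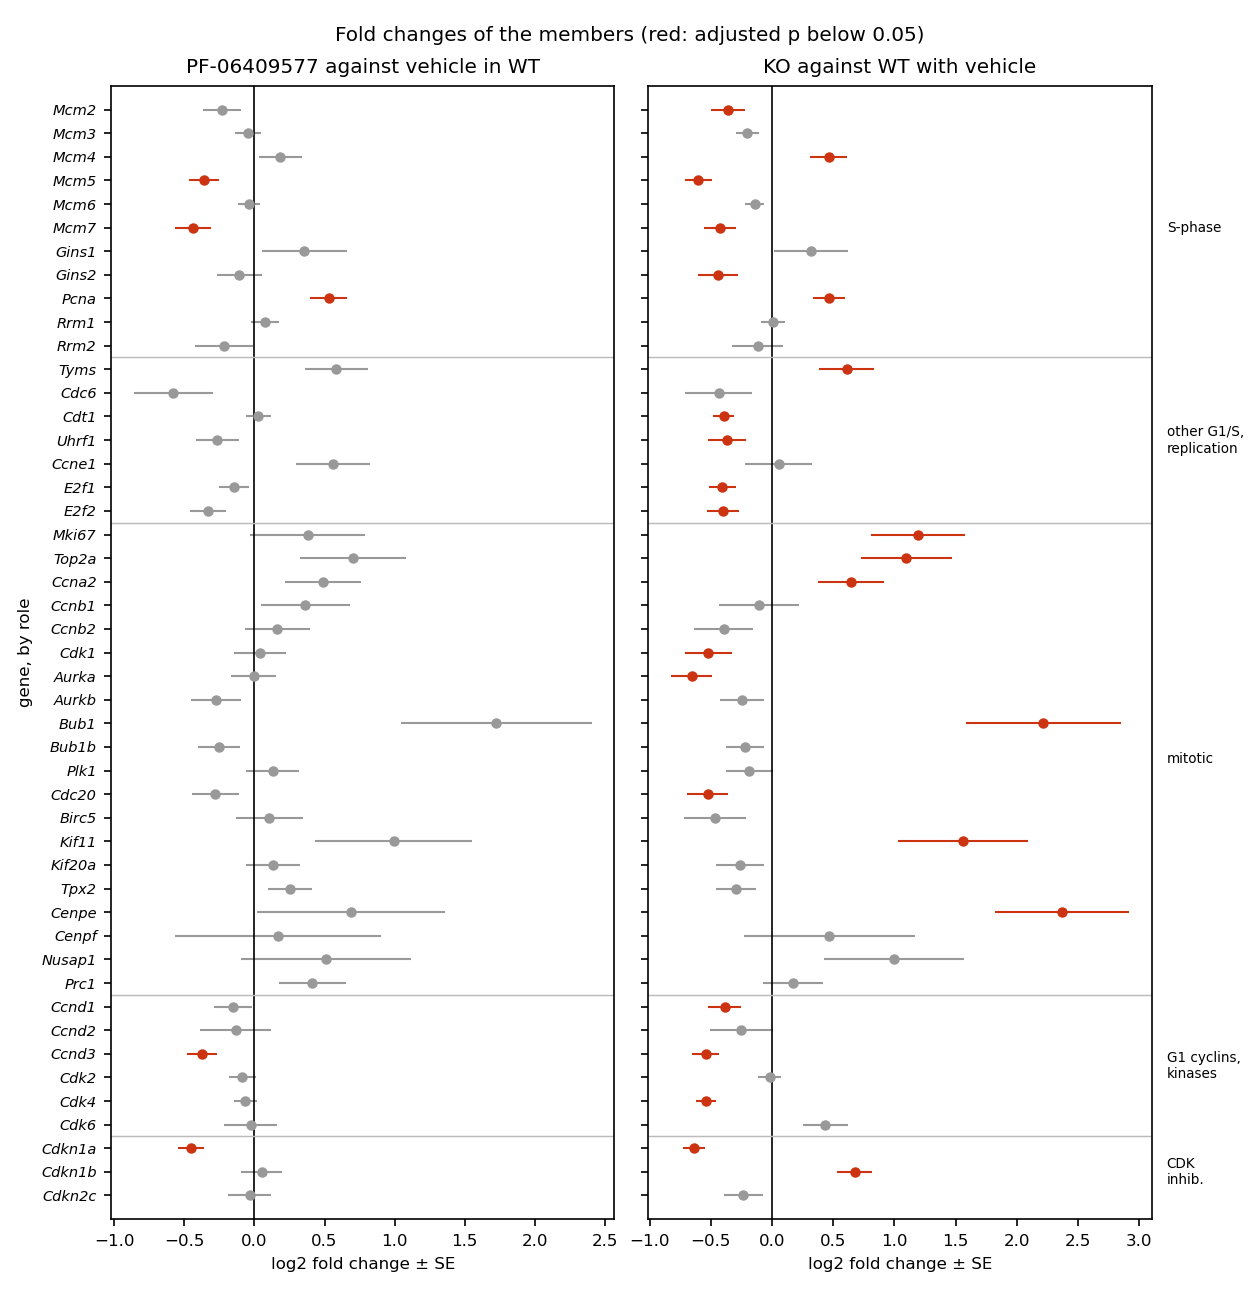
Log2 fold change ± SE of each tested member (rows, by role) for PF-06409577 against vehicle in WT BMDMs (left) and for AMPKβ1-/- (KO) against WT with vehicle (right), with members at adjusted p below 0.05 in red. Red points number 5 on the left and 25 on the right, where the mitotic genes range from −0.66 for Aurka to 2.37 for Cenpe.

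With PF-06409577 in both genotypes, which shares no library with the comparison in vehicle, 6 members were higher and 5 lower in AMPKβ1-/- than in WT BMDMs (background 24.1% and 22.9%), 5 and 1 of them past 0.8 (background 12.2% and 2.06%). Of these 11, 8 were also among the 25 called with vehicle, each in the same direction: Cenpe, Kif11, Mki67 and Cdkn1b were higher and Cdk4, Cdkn1a, Cdt1 and Aurka lower. With vehicle, 29.7% of all genes were higher and 30% lower, and the overlap over all genes is not given here. The 8 of 11 are thus not read as particular to the members. Cenpe differed by 2.49 (SE 0.44, edgeR adjusted p = 0.000406), Mki67 by 1.69 (SE 0.35, edgeR adjusted p = 0.00174) and Kif11 by 1.15 (SE 0.44, edgeR adjusted p = 0.0462). The WT libraries of Mki67 (2.99 to 5.75 CPM) lay under all AMPKβ1-/- libraries (12 to 18.2 CPM). Cdkn1b was at 25.6, 26.3 and 36.9 CPM in WT and at 52.4, 51.0 and 53.4 CPM in AMPKβ1-/- BMDMs (0.82, SE 0.14, edgeR adjusted p = 0.000378), and Cdk4 at 142, 128 and 120 CPM and at 86.2, 90.1 and 85.5 CPM (−0.58, SE 0.082, edgeR adjusted p = 7.52e-05).

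Cenpf (1.89, SE 0.55, edgeR adjusted p = 0.0107), Cdk6 (0.68, SE 0.18, edgeR adjusted p = 0.00835) and Ccne1 (−0.84, SE 0.26, edgeR adjusted p = 0.0163) were called by edgeR with PF-06409577 and not with vehicle, where DESeq2 did call Cdk6 (edgeR 0.44, adjusted p = 0.0572, and DESeq2 0.45, adjusted p = 0.0262). That their genotype difference depended on the drug was not shown, since no member passed the interaction test. No S-phase gene was called. The medians were −0.053 for the S-phase and 0.016 for the mitotic genes, against −0.0012 for all genes. Lower members numbered 2 without AMPKβ1-/- PF-06409577 library 1 and 3 without AMPKβ1-/- PF-06409577 library 3 or WT PF-06409577 library 1, and 7 members were lower without WT PF-06409577 library 3. Of all genes, 17%, 16.5%, 16.8% and 24% were lower in these fits, in that order.

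For AMPKβ1-/- against WT with vehicle and for PF-06409577 in WT BMDMs, the fold changes of both the mitotic and the S-phase genes ran with the base composition of the transcript. Across the 20 mitotic genes, Spearman's rho between the log2 fold change and GC content was −0.78 for AMPKβ1-/- against WT with vehicle and −0.88 for PF-06409577 in WT BMDMs. Across the 11 S-phase genes it was −0.81 and −0.70, and across 10784 tested genes −0.76 and −0.71. In the other comparisons the mitotic genes gave −0.78 (PF-06409577 in AMPKβ1-/- BMDMs), −0.74 (the genotypes with PF-06409577) and −0.33 (interaction), and the S-phase genes −0.036, −0.44 and −0.77. These values are descriptions across genes, which share the libraries and are not independent replicates. Cenpe (GC content 42.9%), Bub1 (41.0%), Kif11 (42.2%), Top2a (43.4%) and Cdkn1b (43.1%), with the lower values, were higher in AMPKβ1-/- BMDMs, while Cdkn1a (54.4%), Cdk4 (53.3%), Ccnd3 (58.4%) and Mcm2 (55.5%) were lower. The libraries themselves differed in this slope, from 0.72, 0.36 and 0.53 (log2 per 10 points of GC content) in WT vehicle to 0.37, 0.17 and −0.051 in WT PF-06409577, −0.10, −0.36 and −0.34 in AMPKβ1-/- vehicle and −0.51, −0.33 and −0.44 in AMPKβ1-/- PF-06409577 libraries.

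**Figure D5:**
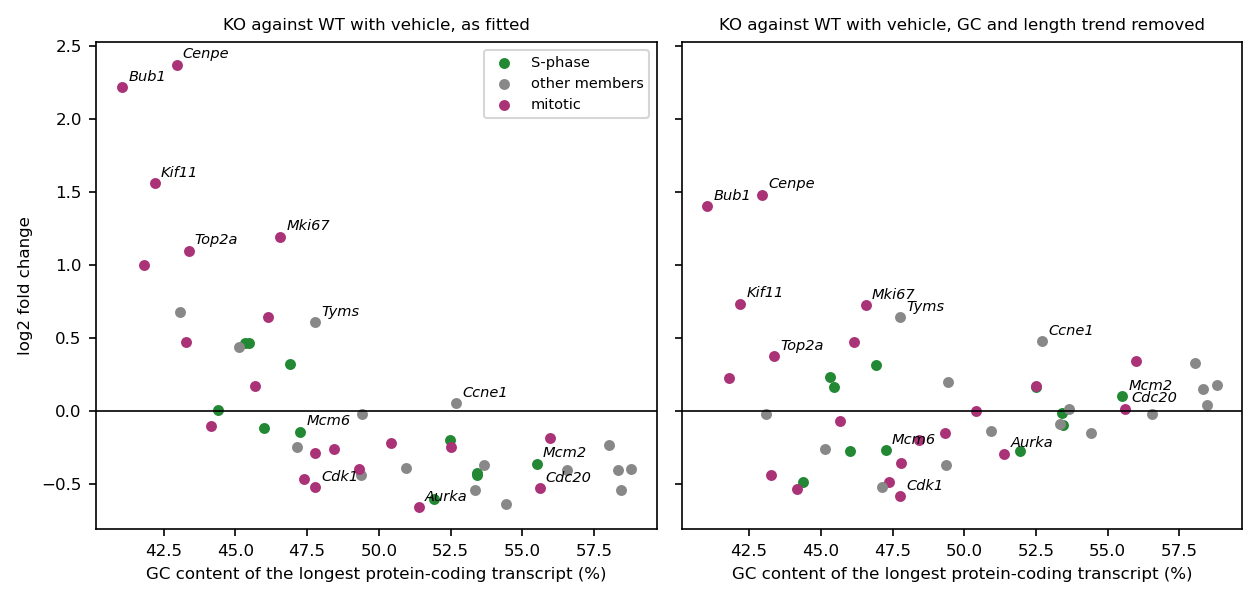
Log2 fold change of the 47 tested members in AMPKβ1-/- (KO) against WT BMDMs with vehicle, by GC content of the longest protein-coding transcript, as fitted (left) and after a trend in GC content and length was removed from each library (right). On the left the values fall from 2.37 for Cenpe at a GC content of 42.9% to below 0 above 50%, apart from Ccne1, and on the right Cenpe is at 1.48, Top2a at 0.37 and Cdc20 at 0.02.

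With a trend in GC content and transcript length removed from each library, AMPKβ1-/- vehicle BMDMs had 2 members higher (Tyms, 0.64, and Cenpe, 1.48) and 4 lower (Mcm5, −0.28, Mcm6, −0.27, Rrm1, −0.48, and Cdk1, −0.58) than WT, where 26.4% of all genes were higher and 10.4% lower. Bub1 (1.40), Mki67 (0.72), Kif11 (0.73) and Top2a (0.37) kept their sign and lost the call (edgeR adjusted p = 0.0873, 0.180, 0.199 and 0.393). Cdkn1b was at −0.02 (edgeR adjusted p = 0.882), Cdk4 at −0.09 (0.233) and Cdkn1a at −0.15 (0.0658). Of 17 members that changed sign 7 had been called, namely Cdkn1b and, now above 0 without a call, Mcm2 (0.10), Ccnd3 (0.04), Cdt1 (0.18), E2f1 (0.15), Uhrf1 (0.01) and Cdc20 (0.02). The removal also moved the median of all genes from −0.026 to 0.12, and that of the genotypes with PF-06409577 to 0.11. With PF-06409577 in WT BMDMs Cdkn1a was the only member still lower (−0.25, edgeR adjusted p = 0.0205), Pcna was no longer called (0.25, edgeR adjusted p = 0.122), and Cdt1 was the only one higher (0.33, edgeR adjusted p = 0.00791), against 3.99% of all genes higher and 2.49% lower. Between the genotypes with PF-06409577, Mki67 (1.26), Cenpe (1.74), Cdk2 (0.24) and Cdkn1b (0.34) were higher and Cdk4 (−0.23) and Rrm1 (−0.34) lower, against 27.5% and 11.8% of all genes, and Cdkn1a, lower as fitted (−0.26), stood at 0.10 without a call (edgeR adjusted p = 0.225). With library size alone as the scaling, the split with vehicle was 11 higher and 5 lower (39.7% and 14.8% of all genes), while the median of all genes stood at 0.18.

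Further genes of these pathways were counted in the same way, and their counts stand beside the same shares of all genes, 6.99% higher and 8.95% lower for PF-06409577 in WT BMDMs. Of 51 other replication genes tested, 1 rose and 2 fell with PF-06409577 in WT BMDMs, and those with the largest change were Dbf4, the activator of the CDC7 kinase that fires origins (0.82, SE 0.23, edgeR adjusted p = 0.0287), and Tk1, thymidine kinase (−0.54, SE 0.17, edgeR adjusted p = 0.0450). Of 67 other mitotic genes, 1 rose and 0 fell, the former being Trip13, an ATPase of the spindle checkpoint (0.84, SE 0.23, edgeR adjusted p = 0.0280). Among 29 genes of the RB, E2F, MYB-MuvB and FOXM1 group 2 rose and 2 fell, with Lin52, a MuvB subunit, at 0.74 and Foxm1, the factor for mitotic genes, at −0.62. Of 21 genes in a list of Trp53, which encodes p53, and p53 targets, 2 rose and 5 fell. Gadd45a, a stress response gene, was at 1.02 and Phlda3, an inhibitor of AKT, at −0.80. Trp53 itself was among the 5 (−0.36, edgeR adjusted p = 0.0137) and lost the call with the trend removed (−0.18, edgeR adjusted p = 0.118). Btg2 (−0.54, edgeR adjusted p = 0.00187) and Plk2 (0.58, edgeR adjusted p = 0.00103), named here after their values were seen, were called in opposite directions, and they stayed so with the trend removed (−0.49 and 0.53), as did Gadd45a (0.98, edgeR adjusted p = 0.0157). Dbf4, Tk1, Trip13, Lin52, Foxm1 and Phlda3 kept their sign and lost the call (edgeR adjusted p = 0.130, 0.161, 0.117, 0.121, 0.243 and 0.175).

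In AMPKβ1-/- BMDMs with PF-06409577, these lists had no call by edgeR, while DESeq2 called 1 other mitotic gene higher. Of the 67 other mitotic genes 51 were positive with a median of 0.22, which was 40 of 68 and 0.069 without AMPKβ1-/- vehicle library 1. For the loss of AMPKβ1 with vehicle, where 29.7% of all genes were higher and 30% lower, 16 of the 51 replication genes were higher and 11 lower, led by Hells, a chromatin remodeller (2.19, SE 0.54), and Orc4, a subunit of the origin recognition complex (1.57, SE 0.29). Other mitotic genes gave 16 higher and 9 lower, led by the spindle proteins Hmmr (2.25, SE 0.52) and Aspm (2.12, SE 0.57). The RB, E2F, MYB-MuvB and FOXM1 group gave 12 higher and 9 lower, with Rb1, the retinoblastoma protein, at 1.31 and Lin9, a MuvB subunit, at 1.16. The list of Trp53 and p53 targets gave 7 higher and 4 lower, with Rrm2b, a ribonucleotide reductase subunit, at 1.78 and Trp53inp1 at 1.54. Trp53 was among the 4 (−0.38) and stood at 0.10 without a call with the trend removed (edgeR adjusted p = 0.223). With the trend removed, Hmmr (1.47), Rb1 (0.38) and Lin9 (0.50) were still called. Aspm (1.36, edgeR adjusted p = 0.0585), Hells (0.85, 0.234), Rrm2b (0.68, 0.0636), Trp53inp1 (0.31, 0.297) and Orc4 (0.27, 0.378) were positive and not called.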

How the data were processed

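Reads were trimmed (Trim Galore) and quantified against transcripts (Salmon) by the authors. The deposited values are Salmon's estimated counts, summed by gene, as integers with no normalization. The genome build, the annotation and the versions of these tools are not given in the sources used here. The counts of 12 libraries entered edgeR 4.0.16 under R 4.3.3 (robust quasi-likelihood test, TMM normalization, filterByExpr by group) in a single fit of the 4 group means. Approximate SE came from each log2 fold change divided by the root of its F value. CPM used TMM-scaled library sizes, and spreads on the log2 scale a prior count of 2. P-values were adjusted over 10822 genes. DESeq2 1.42.0, other scalings and filters, and leaving out each library were alternatives. A spline of 5 degrees of freedom in GC content and length (GENCODE M21, GRCm38, longest protein-coding transcript) gave the trend removed, and the same with the median transcript and a term for the number in the column names were added after the data were seen. Symbols matched the annotation for 12703 genes, an older symbol for 192, and 65 had no match. The fit was tested on simulated data. The members, gene lists and tests were chosen with earlier results of these data known. Members named had the 8 largest called changes of a comparison, or with no call the 3 lowest p, beside 10 members chosen for their role, and for each further list the 2 called genes with the largest change. A count of 0 allows 3 counts, for counting error only. The SE reflect the spread between libraries as well as counting error.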

Additional observations from a re-analysis of the deposited data

How the results depend on the processing

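The column names share the numbers 1 to 3 across the groups, and no label says that a number marks a shared animal, culture or day. Deviations of same-numbered libraries from their group means correlated by −0.17 to 0.32, above 0.1 in 4 of 12 pairs, and in 4 of 12 both libraries correlated best with their own number, so the numbers were taken as names. A replicate block on them gave 1 higher and 4 lower members for PF-06409577 in WT, 0 in AMPKβ1-/- BMDMs and for the interaction, 11 and 15 for the genotypes with vehicle and 8 and 5 with PF-06409577, and changed the call of no named member. Over all genes, calls for PF-06409577 in AMPKβ1-/- BMDMs went from 6 to 0.

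Of the 554 values of named members under alternative settings, 470 kept direction and side of the threshold and 82 kept direction and lost the call. Among these values Cdkn1b in AMPKβ1-/- against WT with vehicle changed sign, to −0.019 with the GC and length trend removed and −0.0058 with that of the median transcript. With the first of these, Mcm2, Ccnd3, Cdt1, E2f1, Uhrf1 and Cdc20, lower as fitted, also turned positive without a call (0.10, 0.04, 0.18, 0.15, 0.01 and 0.02). For PF-06409577 in WT, lower members numbered 1 with library size alone, with the libraries of the comparison alone or with the trend removed, and 2 with the trend of the median transcript removed. Of all genes, 5.42%, 2%, 2.49% and 2.59% were then lower, in that order, against 8.95% as fitted. For AMPKβ1-/- against WT with vehicle, higher members numbered 2 and 3 with the trends removed (26.4% and 25.3% of all genes). Lower members numbered 5 with library size alone (14.8%), and 4 and 5 with the trends removed (10.4% and 11.1%). With PF-06409577, higher members numbered 3 with at least 10 counts in every library (24.2% of all genes) and 10 with the libraries of the comparison alone (24.6%). Lower members numbered 3 with library size alone (12.6%) or DESeq2 (18.5%) and 2 with the trend removed (11.8%). The S-phase minus mitotic median was then 0.16 with at least 10 counts in every library (−0.069 as fitted). This filter takes out the mitotic genes Bub1, Cenpe, Cenpf, Kif11 and Nusap1, which had fewer than 10 counts in some libraries. Of these, Cenpe, Cenpf and Kif11 were among the 6 higher members as fitted. The causes of the other shifts were not tested.

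Leaving out each library in turn gave, for PF-06409577 in WT, 0 to 1 higher and 1 to 5 lower members and an S-phase minus mitotic median of −0.45 (without WT vehicle library 2) to −0.17 (−0.25 with all libraries). Of all genes, 1.18% to 14.9% were higher and 1.99% to 14.8% lower in these fits. In AMPKβ1-/- BMDMs and for the interaction 0 members were called each time, with medians of −0.26 to −0.085 (−0.19 with all) and −0.28 (without AMPKβ1-/- vehicle library 1) to 0.086 (−0.0016 with all). For AMPKβ1-/- against WT with vehicle the ranges were 3 to 11 higher, 10 to 15 lower and −0.20 (without AMPKβ1-/- vehicle library 1) to 0.081, and with PF-06409577 5 to 8 higher, 2 to 7 lower and −0.16 to 0.056. Shares of all genes ranged from 24.3% to 30.3% higher and from 23.8% to 30.6% lower with vehicle. With PF-06409577 they ranged from 18.8% to 25.9% higher and from 16.5% to 24% lower. At this depth Bub1 had 6 counts in the WT vehicle libraries, which leaves a counting interval of 2.05 to 14.4 on its ratio between the genotypes.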
